A study of Mus musculus with 13 samples.

Results

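The spread between arrays of the same group was compared across 3 groups of mouse bone marrow, gene by gene, without reference to the group means. Spread was measured as the standard deviation (SD) of log2 signal between the arrays of a group. Genes were kept when their signal lay above the median of their array in at least 4 of the 13 arrays, which left 10601 of 19505 named genes, or 54.4%. The choice used signal levels and not spread, and a gene could pass through the 4 Luc arrays alone. Of the kept genes, 8343 lay above the array median on all 13 arrays.

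Marrow was taken from C57Bl/6J mice that had been irradiated with 7 Gy and transplanted with LSK cells, a marrow fraction rich in stem and early progenitor cells, from Cas9 knock-in mice. The LSK cells had been transduced with guide RNAs 24 h before transplantation. The BRSST-Ezh2 group (4 arrays) received a guide combination named BRSST plus a guide against Ezh2, the BRSST-Luc group (5 arrays) received the same combination plus the control guide sgLuc, and the Luc group (4 arrays) received sgLuc without the combination. The labels used here do not spell out which genes BRSST targets. Complete marrow was harvested at signs of leukemia or at 6 months, and which of these applied to a given array is not stated, so time since transplantation and stage may differ between arrays of a group. Each array used 2 ng of RNA, amplified with 10 PCR cycles before in vitro transcription. Nothing states that the arrays of a group came from separate mice, so the p-values reflect variation among these samples that could be technical. The running numbers in the sample descriptions are consecutive over the 9 BRSST arrays and belong to a separate block for the Luc arrays. A difference in array handling between these blocks and the Luc group cannot be told apart.

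Whole marrow is a mixture of maturing neutrophils, monocytes, erythroid cells, B lineage cells, a few T and NK cells and rare progenitors. A leukemia that fills the marrow can displace the other lineages, and the signal of lineage genes in whole marrow carries the cell mixture of each mouse. Genes of the ribosome, the respiratory chain and the proteasome are used by nearly every cell and depend less on the mixture. In these bulk samples, fewer cells of a type and less RNA per cell cannot be told apart. The marrow label was borne out by neutrophil granule genes: the antimicrobial peptide gene Camp read 13.36 to 13.74 and the myeloperoxidase gene Mpo 12.87 to 13.29 over all 13 arrays, against array medians of 7.19 to 7.32.

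The BRSST-Luc arrays differed from each other more than the arrays of the other groups did. The median SD over the 10601 genes was 0.188 in BRSST-Ezh2, 0.248 in BRSST-Luc and 0.154 in Luc. The median of BRSST-Luc was therefore 1.61 times that of Luc, and the median of BRSST-Ezh2 was 1.22 times that of Luc. The SD was larger in BRSST-Luc than in Luc for 75.4% of genes, larger in BRSST-Ezh2 than in Luc for 61.2%, and larger in BRSST-Ezh2 than in BRSST-Luc for 33%. An SD above 0.5 was seen for 427 genes in BRSST-Ezh2, 1225 in BRSST-Luc and 157 in Luc, and an SD above 1 for 77, 116 and 7 genes. The groups hold only 4 or 5 arrays, which limits the precision of every SD.

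**Figure D1:**
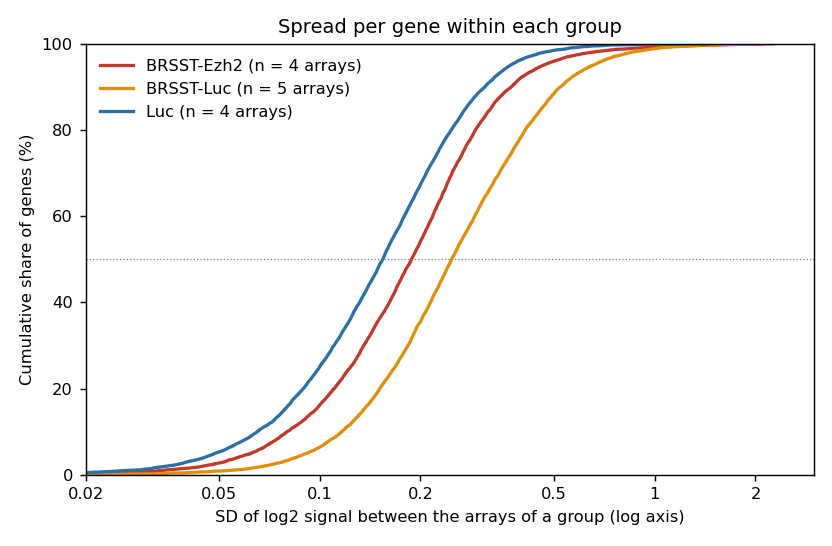
Cumulative share of the 10601 genes (vertical axis, %) at or below a given SD of log2 signal between the arrays of a group (horizontal axis, log scale), one line per group, with a dotted line at 50%. The BRSST-Luc line lies to the right of the others through most of its course and crosses 50% at 0.248, against 0.188 for BRSST-Ezh2 and 0.154 for Luc.

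The excess in BRSST-Luc was largest among brightly measured genes. With genes in 4 equal bins of mean signal, the median SD of BRSST-Luc was 1.17 times that of Luc in the lowest bin, and in the highest bin it was 2.18 times. The same ratios for BRSST-Ezh2 against Luc were 1.16 and 1.29. Among the 1061 genes in the top 10% of SD, BRSST-Ezh2 and BRSST-Luc shared 404, or 38.1% of each. BRSST-Ezh2 and Luc shared 341 of theirs (32.1%), and BRSST-Luc and Luc shared 262 (24.7%). A set of 167 genes was in the top 10% of all 3 groups. Unrelated rankings would share about 10%, so each pair, also those with Luc, shared more than that. The SD also depended on signal level, and the part of signal level in the shared genes was not tested.

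The distance of an array from its group mean was taken as the root mean square over genes of its corrected deviations. The BRSST-Ezh2 arrays lay at 0.242, 0.268, 0.293 and 0.291 (mean 0.274 ± 0.0238, SD, n = 4). The BRSST-Luc arrays lay at 0.247, 0.475, 0.318, 0.272 and 0.414 (mean 0.345 ± 0.0965, SD, n = 5). The Luc arrays lay at 0.157, 0.162, 0.282 and 0.204 (mean 0.202 ± 0.0574, SD, n = 4). BRSST-Luc replicates 2 and 5 were the farthest out, and the single Luc array near the BRSST range was replicate 3.

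**Figure D2:**
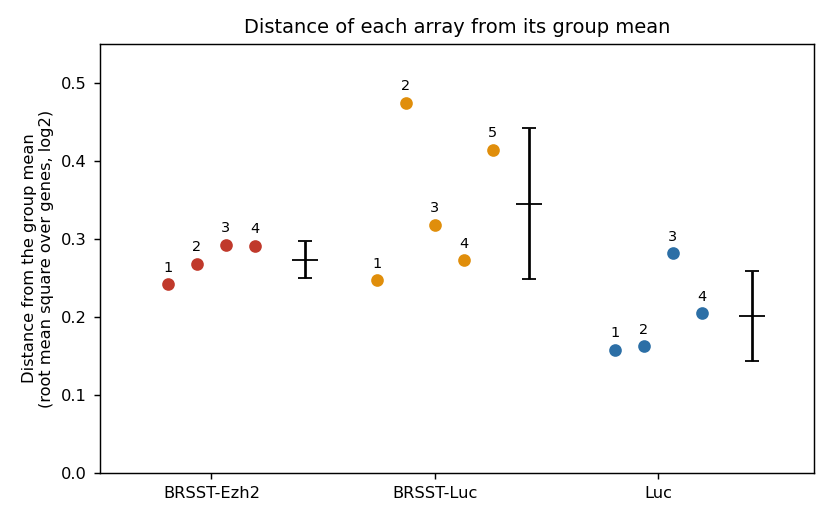
Distance of each of the 13 arrays from the mean of its group (vertical axis, root mean square over 10601 genes, log2 units), with replicate numbers above the points and the group mean ± SD as black bars. BRSST-Luc replicates 2 (0.475) and 5 (0.414) lie highest, and Luc replicates 1 (0.157) and 2 (0.162) lowest.

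In exact two-sided permutation tests of these distances, BRSST-Luc exceeded Luc by 0.144 (p = 0.0476, adjusted over the 3 comparisons 0.129). BRSST-Ezh2 exceeded Luc by 0.0720 (exact p = 0.0857 over 70 splits, adjusted 0.129), and BRSST-Ezh2 differed from BRSST-Luc by -0.0717 (exact p = 0.206, adjusted 0.206). None of the 3 differences passed 0.05 after adjustment, where the smallest unadjusted p-values these designs allow are 0.0286 for 4 against 4 arrays and 0.0159 for 5 against 4. Without BRSST-Luc replicates 2 and 5 the difference between BRSST-Luc and Luc was 0.0644 (exact p = 0.229), and the median SD of BRSST-Luc was 0.171. Without Luc replicate 3 the median SD of Luc was 0.113.

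A few arrays carried much of the spread. BRSST-Luc replicate 2 held 35.6% of the summed squared deviations of its group and replicate 5 held 27.1%, while Luc replicate 3 held 46% of those of Luc. The BRSST-Ezh2 arrays were more even, with 19.5% to 28.5% each. The first principal component within BRSST-Luc, with 52.5% of the variance, set replicate 2 against replicate 5, and that within BRSST-Ezh2, with 41.9%, set replicate 3 against replicate 4. Within Luc it held 63% and set replicate 3 against the others. The interquartile range of signal on the whole array was narrowest on Luc replicate 3 (3.06) and BRSST-Luc replicate 2 (3.07), against 3.10 to 3.51 on the other 11 arrays, and the part of this narrowing in their distance was not tested.

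Single genes were tested in 2 ways. Limma on absolute deviations from the group mean, with Benjamini-Hochberg adjustment, called 0 genes (0% of those tested) between BRSST-Ezh2 and Luc in either direction, with 419 genes larger and 92 smaller in BRSST-Ezh2 at an unadjusted p under 0.05. These unadjusted counts are not read as a result, since simulated data with equal spreads gave more of them in total in this comparison. The simulation drew genes independently and was not split by direction, so it cannot judge the balance of larger and smaller. On the real arrays limma called 30 genes (0.283%) with a larger spread in BRSST-Luc than in Luc and 0 with a smaller one (1509 larger and 124 smaller unadjusted). Between the BRSST groups it called 1 gene with a larger spread in BRSST-Ezh2 (0.00943%) and 11 with a smaller one (0.104%). A moderated ratio of variances, chosen after seeing the data, called 46 genes (0.434%) with a larger spread in BRSST-Luc than in Luc and 0 in the other comparisons. The 2 tests shared 8 genes. The first test favours genes whose arrays all lie about equally far from the mean, such as 2 arrays against 3, and the second favours genes with a few far values.

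The calls rested on few arrays. The 46 genes fell to 0 without BRSST-Luc replicate 2, to 13 without replicate 5 and to 0 without Luc replicate 1, 2 or 4, and went to 950 without Luc replicate 3. The 30 genes of the first test ranged from 0 to 302 when single arrays were left out: 302 without BRSST-Luc replicate 1, 189 without replicate 5, 153 without replicate 4, 0 without Luc replicate 2, 3 or 4, 4 without Luc replicate 1 and 7 to 11 without any 1 BRSST-Ezh2 array. The count with deviations taken from the group median was 0. Among the 46 genes, BRSST-Luc replicate 2 was the farthest array for 25 (above the mean for 22) and replicate 5 for 14 (below the mean for 11). All 46 also had a larger SD in BRSST-Ezh2 than in Luc (61.2% of all genes), with median SDs of 0.431 in BRSST-Ezh2, 1.19 in BRSST-Luc and 0.124 in Luc. The call itself uses the Luc SD and favours genes where it is small, so this count is no separate support.

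Aif1, which encodes an actin-binding protein of monocytes and macrophages, read 5.98, 10.56, 8.79, 6.54 and 5.08 on the 5 BRSST-Luc arrays. The same gene read 8.71, 8.61, 9.01 and 9.33 in BRSST-Ezh2 and 8.37, 8.21, 8.14 and 8.61 in Luc. Its SDs were 0.32 in BRSST-Ezh2, 2.24 in BRSST-Luc and 0.21 in Luc (variance ratio, BRSST-Luc against Luc, adjusted p = 0.0262). BRSST-Luc replicate 2 lay above and replicate 3 within the range of the other groups, and replicates 1, 4 and 5 lay below every array of the other groups.

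The same order of arrays returned in other genes. Ms4a4c, a membrane protein gene of the Ms4a cluster, read 6.65, 10.65, 9.63, 7.22 and 5.36 in BRSST-Luc, with SDs of 0.39, 2.18 and 0.22 in BRSST-Ezh2, BRSST-Luc and Luc (variance ratio, BRSST-Luc against Luc, adjusted p = 0.0262). Clec4a3, a C-type lectin gene of monocytes, read 8.02, 10.35, 9.58, 7.92 and 5.91 in BRSST-Luc against 9.48 to 10.01 in Luc (variance ratio adjusted p = 0.0395). Il6st, which encodes the gp130 subunit shared by receptors of the interleukin-6 family, read 7.92, 9.40, 10.12, 7.73 and 9.47 against 10.38 to 10.60 in Luc (variance ratio adjusted p = 0.0433). For Il6st replicates 1 and 4 were low and replicate 5 was not.

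A split of replicates 2 and 3 from 1, 4 and 5 marked several genes called by limma on absolute deviations. Siglech, a lectin gene of plasmacytoid dendritic cells, read 6.50, 9.01, 9.01, 6.40 and 5.89 in BRSST-Luc, 6.18 to 6.76 in BRSST-Ezh2 and 10.37 to 11.38 in Luc. Its spread was larger in BRSST-Luc than in Luc (limma adjusted p = 0.0362) and smaller in BRSST-Ezh2 than in BRSST-Luc (limma adjusted p = 0.0292). Ptpro, a receptor tyrosine phosphatase gene, read 6.30, 8.14, 8.08, 6.38 and 6.15 (limma adjusted p = 0.0336 against Luc). Dpp7, a lysosomal dipeptidyl peptidase gene, ran the other way, at 8.72, 7.13, 7.31, 8.81 and 8.75 (limma adjusted p = 0.0152 against Luc). The single gene called as more variable in BRSST-Ezh2 than in BRSST-Luc was Phactr2, a phosphatase and actin regulator gene, at 9.23, 8.44, 8.31 and 9.22 in BRSST-Ezh2 and 8.39 to 8.68 in BRSST-Luc (limma adjusted p = 0.0292).

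Some large SDs came from 1 array. Ceacam10, a carcinoembryonic-antigen-related adhesion gene, read 11.66, 12.16, 11.12, 11.76 and 8.14 in BRSST-Luc, against 11.14 to 11.71 in BRSST-Ezh2 and 11.10 to 11.37 in Luc (SD 1.62 in BRSST-Luc, variance ratio against Luc adjusted p = 0.0262). Il1f9, an interleukin-1 family cytokine gene, read 10.46 to 11.14 on BRSST-Luc replicates 1 to 4 and 7.54 on replicate 5 (variance ratio against Luc adjusted p = 0.0319). Replicate 5 was the low array in both. Of the 12 named genes with the largest SD in each group, the SD fell below a threshold of 0.5 times its value without the farthest array for 5 in BRSST-Ezh2 and 6 in BRSST-Luc. The same count over all genes was not made, so these counts are a description. Dixon's ratio is the gap to the nearest other array divided by the range of the group. By this ratio 1 array stood apart for 6.13% of the top 10% of SD in BRSST-Ezh2 (5.38% of all genes) and 9.9% in BRSST-Luc (6.94% of all genes).

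Retnla, a resistin-like gene induced in macrophages by type 2 cytokines, varied on nearly all BRSST arrays. It read 9.32, 6.69, 10.08 and 10.43 in BRSST-Ezh2 and 10.27, 8.08, 7.25, 10.18 and 4.81 in BRSST-Luc, while the Luc arrays read 4.29 to 4.83. Its SDs were 1.69, 2.27 and 0.23 in the order BRSST-Ezh2, BRSST-Luc, Luc (variance ratio, BRSST-Luc against Luc, adjusted p = 0.0262). The Luc arrays lay among the dimmest values of the table, which start at 3.23, where array signal has little room to vary.

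**Figure D3:**
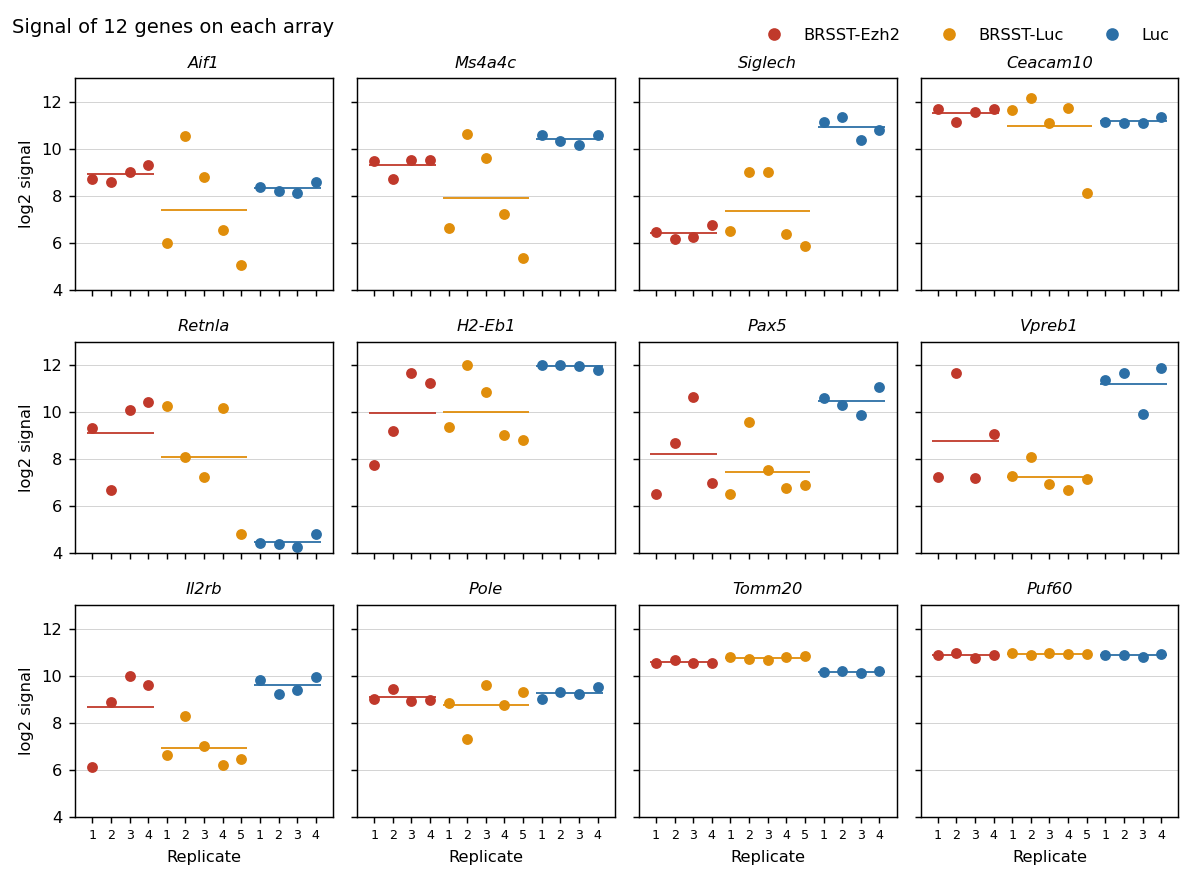
log2 signal of 12 genes on each array (vertical axis), arrays ordered by group and replicate, points coloured by group, with a line at each group mean. Aif1, Ms4a4c and Siglech are high on BRSST-Luc replicates 2 and 3, Ceacam10 is low on BRSST-Luc replicate 5 (8.14), Vpreb1 is high on BRSST-Ezh2 replicate 2 (11.67), Pole is low on BRSST-Luc replicate 2 (7.31), and Tomm20 and Puf60 stay near 1 level within each group.

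B lineage genes had a large spread in all 3 groups. Over 18 measured members of a list of 23 the median SD was 1.14 in BRSST-Ezh2, 0.621 in BRSST-Luc and 0.570 in Luc. Of the 18, 16 were in the top 10% of SD in BRSST-Ezh2, 11 in BRSST-Luc and 14 in Luc, against 10% of all genes by construction. The SD was larger in BRSST-Ezh2 than in Luc for 16 of 18 (61.2% of all genes) and larger in BRSST-Luc than in Luc for 10 of 18 (75.4% of all genes). Neither test called a member. Without 1 array the medians were lower: 0.686 without BRSST-Ezh2 replicate 3, 0.261 without BRSST-Luc replicate 2 and 0.377 without Luc replicate 3.

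The arrays that were high differed from gene to gene along the B cell pathway. Vpreb1, part of the surrogate light chain made by early B cell precursors, read 7.26, 11.67, 7.21 and 9.06 in BRSST-Ezh2, with an SD of 2.10, the largest in that group. Rnase12, a ribonuclease-family gene, followed the same order at 6.60, 10.37, 6.04 and 6.84. Pax5, the transcription factor that fixes B cell identity, read 6.54, 8.68, 10.67 and 7.00 (SD 1.87). Spib, a transcription factor of mature B cells and plasmacytoid dendritic cells, read 6.82, 6.86, 10.22 and 6.90 (SD 1.68).

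Replicate 2 was therefore the high array for the precursor genes and replicate 3 for Pax5 and Spib. Vpreb3, another precursor gene, also had its highest reading on replicate 2 (6.30, 10.19, 6.91 and 7.48). Fcmr, the receptor for IgM on mature B cells, had its highest reading on replicate 3 (7.65, 7.98, 11.38 and 7.82). In BRSST-Luc replicate 2 was the high array for Pax5 (6.53, 9.60, 7.55, 6.78 and 6.92) and for Cd79a, the signalling chain of the B cell receptor (7.44, 10.66, 8.43, 7.57 and 7.56). The precursor gene Vpreb1 stayed at 6.69 to 8.11 over the BRSST-Luc arrays.

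The mean of the 18 genes was 6.97, 8.37, 8.91 and 7.51 on the BRSST-Ezh2 arrays, 6.83, 8.42, 7.15, 6.99 and 6.99 on the BRSST-Luc arrays and 9.83, 9.62, 8.95 and 10.23 on the Luc arrays. The BRSST groups did not reach the lowest Luc array. All 18 genes lay above the array median on each Luc array, against 7 to 13 on the BRSST-Ezh2 arrays and 8 to 15 on the BRSST-Luc arrays. Where a gene falls below the array median, array signal can compress differences. Among the members above the median on all 13 arrays, at most 7 genes, the median SD was 1.23 in BRSST-Ezh2, 1.10 in BRSST-Luc and 0.513 in Luc.

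Plasma cell genes varied on single arrays too. Over 8 measured members of a list of 10 the median SD was 0.457, 0.453 and 0.325 in BRSST-Ezh2, BRSST-Luc and Luc. It was 0.246 without BRSST-Luc replicate 2, and in Luc 0.194 without replicate 3 and 0.203 without replicate 4. Among members above the median on all 13 arrays, at most 2 genes, it was 0.349, 0.125 and 0.0838. Mzb1, a chaperone of antibody-secreting and marginal zone B cells, read 5.37, 6.09, 9.09 and 5.86 in BRSST-Ezh2 and 5.31, 9.66, 5.69, 5.22 and 5.58 in BRSST-Luc. Jchain, the joining chain of secreted IgM and IgA, read 8.79, 5.99, 8.08 and 6.55 and 7.35, 9.54, 8.80, 6.48 and 9.07 in the same groups, against 11.39 to 12.33 in Luc. Xbp1, a factor of the secretory pathway that is also used outside plasma cells, stayed at 11.43 to 12.02 on all 13 arrays.

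T and NK cell genes had larger median SDs in the BRSST groups than in Luc. Over 16 measured members of a list of 23 the median SD was 0.879 in BRSST-Ezh2, 0.563 in BRSST-Luc and 0.287 in Luc, and 15, 8 and 7 of them were in the top 10%. The SD was larger than in Luc for 16 of 16 members in BRSST-Ezh2 (61.2% of all genes) and for 12 of 16 in BRSST-Luc, a share like the 75.4% of all genes. Without BRSST-Ezh2 replicate 1 the median of that group was 0.530, and without BRSST-Luc replicate 2 that of BRSST-Luc was 0.268, below Luc. Among members above the median on all 13 arrays, at most 4 genes, the medians were 0.577, 0.311 and 0.157.

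NK and T cell genes were low on different arrays. Klrd1, which encodes the CD94 receptor of NK cells, read 5.26, 8.25, 9.17 and 8.34 in BRSST-Ezh2 and 5.69, 9.81, 6.67, 5.47 and 5.16 in BRSST-Luc, against 8.50 to 9.06 in Luc (SD 1.71, 1.90 and 0.26, variance ratio for BRSST-Luc against Luc adjusted p = 0.0379). Il2rb, an interleukin-2 receptor chain, read 6.11, 8.90, 10.00 and 9.61 in BRSST-Ezh2. Cd3g, a chain of the T cell receptor complex, read 5.41, 5.67, 9.20 and 7.95 in the same group. Replicate 1 was low for all 3 genes, and replicate 2 was low for Cd3g only.

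Gzma, a granule protease of NK and cytotoxic T cells, read 6.24, 9.88, 9.07 and 9.28 in BRSST-Ezh2 and 5.82, 10.16, 7.89, 6.16 and 5.82 in BRSST-Luc. On BRSST-Luc replicate 2 it lay above each Luc array (8.15 to 9.79). The number of the 16 genes above the array median was 5, 9, 16 and 12 on the BRSST-Ezh2 arrays, 4, 13, 5, 4 and 5 on the BRSST-Luc arrays and 15 or 16 on the Luc arrays.

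MHC class II genes let antigen-presenting cells and B cells display peptides to T cells, and some of them had a far larger SD in the BRSST groups than in Luc. H2-Eb1 read 7.77, 9.20, 11.67 and 11.26 in BRSST-Ezh2, 9.37, 12.01, 10.85, 9.05 and 8.84 in BRSST-Luc and 12.02, 12.01, 11.99 and 11.79 in Luc. Its SDs were 1.82, 1.36 and 0.11 (variance ratio, BRSST-Luc against Luc, adjusted p = 0.0319). H2-Ab1, the partner chain of another class II molecule, had SDs of 1.38, 1.20 and 0.15 (variance ratio, BRSST-Luc against Luc, adjusted p = 0.0407). H2-DMa, part of the complex that loads peptides, had SDs of 0.23, 0.61 and 0.02, so its spread in BRSST-Ezh2 was close to the all-gene median of 0.188.

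Over the 14 measured members of the dendritic cell and MHC class II list of 17 the median SD was 0.337 in BRSST-Ezh2, 0.561 in BRSST-Luc and 0.169 in Luc. The SD was larger than in Luc for 10 of 14 in BRSST-Ezh2 (61.2% of all genes) and 12 of 14 in BRSST-Luc (75.4% of all genes), not far above those shares. Among members above the median on all 13 arrays, at most 8 genes, the median was 0.524 in BRSST-Ezh2 and 0.10 in Luc. Not every member of the list spread. Zbtb46, a transcription factor of conventional dendritic cells, stayed at 6.80 to 7.56 on the 13 arrays, close to the array medians. B cells also carry class II genes, and the B lineage mean and H2-Eb1 were both high on BRSST-Ezh2 replicate 3 and BRSST-Luc replicate 2. On BRSST-Ezh2 replicate 4 H2-Eb1 was high while the B lineage mean was 7.51. On BRSST-Ezh2 replicate 2 H2-Eb1 was lower while that mean was 8.37. The part of B cells in the class II spread was not tested.

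Monocyte and macrophage genes varied more in the BRSST groups than in Luc. Over 16 measured members of a list of 24 the median SD was 0.432 in BRSST-Ezh2, 0.662 in BRSST-Luc and 0.177 in Luc, and 10, 11 and 0 of them were in the top 10%. The SD was larger in BRSST-Luc than in Luc for 16 of 16 (75.4% of all genes). It was larger in BRSST-Ezh2 than in Luc for 15 of 16 (61.2% of all genes), yet no member was called by either test. Without Luc replicate 1 the Luc median was 0.105. The list mean was 9.14, 8.76, 9.12 and 9.68 in BRSST-Ezh2, 8.41, 9.30, 9.29, 8.58 and 8.32 in BRSST-Luc and 9.39 to 9.55 in Luc.

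The receptor gene Csf1r, which monocytes need for survival, read 9.76, 10.50, 10.46, 9.94 and 9.54 in BRSST-Luc and 10.78 to 10.92 in Luc. Ccr2, the chemokine receptor of classical monocytes, read 8.83, 9.88, 10.13, 8.88 and 8.44 against 10.69 to 10.94. Both were high on replicates 2 and 3 and low on 1, 4 and 5. C1qa, a complement gene of tissue macrophages, was highest on replicate 3 (6.81, 7.64, 9.02, 6.39 and 6.57).

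Axl, a receptor by which macrophages take up dying cells, was the member that spread most in BRSST-Ezh2, at 6.99, 6.14, 7.13 and 9.07 (SD 1.24), with replicate 4 high. Cd14, the lipopolysaccharide co-receptor, was low on BRSST-Luc replicates 2 and 3 (11.20, 10.13, 9.94, 11.18 and 10.55), the reverse of Csf1r. Saa3, an acute phase gene, was likewise high on replicates 1 and 4 at 11.84, 9.60, 10.18, 11.88 and 8.11 (SD 1.59 in BRSST-Luc, 0.88 in BRSST-Ezh2 and 0.32 in Luc).

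**Figure D4:**
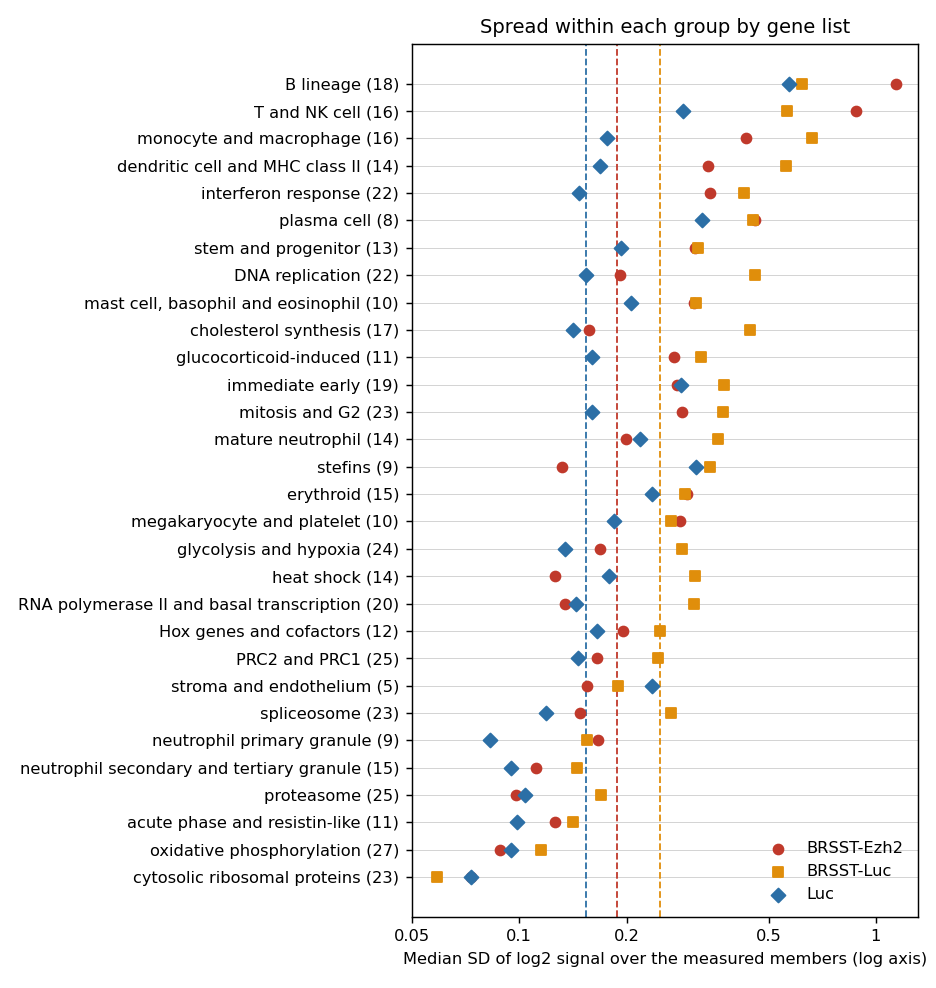
Median SD of log2 signal over the measured members of 30 gene lists (horizontal axis, log scale), 1 marker per group, with the number of members in brackets and dashed lines at the all-gene medians of 0.188 (BRSST-Ezh2), 0.248 (BRSST-Luc) and 0.154 (Luc). Lymphoid, monocyte and MHC class II lists lie to the right in the BRSST groups, and ribosomal proteins (0.0733, 0.0589 and 0.0735, with BRSST-Ezh2 and Luc overlapping), oxidative phosphorylation and granule lists lie to the left.

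Neutrophil granule genes had small SDs, but bright genes in general do. The 9 primary granule genes, made by early myeloid precursors, had median SDs of 0.166, 0.155 and 0.0827 in BRSST-Ezh2, BRSST-Luc and Luc. The 15 measured secondary and tertiary granule genes had medians of 0.111, 0.145 and 0.0946, and Camp had SDs of 0.06, 0.05 and 0.06. Among genes of like signal the median SD percentile was 78.5, 57.9 and 59.8 for the primary list and 64.5, 45.3 and 65.3 for the secondary and tertiary list. Of these 6 values 5 lay above 50, so granule genes were mostly not steadier than genes of their brightness. The widest members included Lyz2, the lysozyme gene of myeloid cells including monocytes, at 12, 12.97, 12.65, 12.02 and 11.62 in BRSST-Luc (SD 0.54, against 0.03 in Luc), and the collagenase gene Mmp8 at 11.71, 12.17, 12.40, 11.47 and 12.35 (SD 0.41, against 0.11 in Luc). Signal this high is close to the highest value of the table, 13.75, where an array can saturate, and the part of saturation in the small SDs was not tested.

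The 14 measured genes of mature neutrophils had medians of 0.199, 0.361 and 0.218. The order of BRSST-Ezh2 and Luc rested on single arrays, with 0.114 without BRSST-Ezh2 replicate 4 and, in Luc, 0.117 without replicate 1 and 0.143 without replicate 3. Cxcl2, a neutrophil-attracting chemokine, read 10.35, 8.39, 8.82, 10.37 and 9.36 in BRSST-Luc and 8.59 to 8.99 in BRSST-Ezh2. Il1b, the interleukin-1 beta gene, read 9.51 on BRSST-Luc replicate 5 and 10.34 to 11.35 on the other BRSST-Luc arrays, and in Luc it ranged from 10.61 to 11.88. Stefins, cysteine protease inhibitors abundant in neutrophils, had medians of 0.132, 0.343 and 0.312 over 9 genes, with 0.222 without BRSST-Luc replicate 5 and 0.196 without Luc replicate 4. Members of this family are near-identical copies whose probes can share signal, so their values are not independent.

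Erythroid genes had median SDs of 0.296, 0.291 and 0.236 in BRSST-Ezh2, BRSST-Luc and Luc over 15 measured members, above the all-gene median in each group. Among members above the median on all 13 arrays, at most 9 genes, the Luc median was 0.108. Car1, carbonic anhydrase of red cell precursors, was the most variable, at 9.04, 8.15, 9.44 and 7.54 in BRSST-Ezh2, 9.99, 8.95, 11.78, 10.44 and 10.40 in BRSST-Luc and 6.71 to 8.69 in Luc. BRSST-Luc replicate 3 was the high array. Fech, which completes heme, stayed at 9.06 to 9.54 on the 9 BRSST arrays.

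Megakaryocyte genes followed the same rank, with medians of 0.282, 0.266 and 0.184 over 10 measured members and 0.108 in Luc without replicate 3. The platelet chemokine gene Pf4 read 8.57, 10.43, 10.58 and 8.76 in BRSST-Ezh2 and 9.33, 10.31, 9.81, 10.09 and 8.13 in BRSST-Luc, with SDs of 1.07 and 0.87 against 0.26 in Luc. Gp9, a subunit of the platelet receptor for von Willebrand factor, read 8.88 to 9.48 on all 13 arrays.

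Mast cell, basophil and eosinophil genes had medians of 0.309, 0.313 and 0.206 over 10 measured members, and 0.135 in Luc without replicate 3. Cpa3, a mast cell and progenitor protease, was highest on BRSST-Ezh2 replicate 2 (9.45, 11.03, 9.93 and 9.27). Gata2, a factor of stem cells and mast cells, was high on the same array (7.62, 9.0, 7.98 and 7.38). The stem and progenitor list had medians of 0.310, 0.317 and 0.193 over 13 measured members, and replicate 2 was also the highest BRSST-Ezh2 array for the list mean (8.82, 9.49, 9.05 and 8.82). Cd34, a surface protein of progenitors, read 9.70, 10.78, 9.93 and 9.81, Meis1, a homeobox cofactor, 6.56, 7.74, 6.80 and 7.10, and Angpt1, a cytokine gene of stem cells, 5.69, 7.47, 6.67 and 6.75.

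Ptprs, a receptor phosphatase gene, had an SD of 0.66 in BRSST-Luc, at 9.30, 9.77, 10.59, 8.99 and 10.28 against 10.11 to 10.47 in Luc. Kit, the stem cell factor receptor, read 11.38 to 12.33 in BRSST-Luc and 11.75 to 11.98 in Luc. Only 5 of 15 stroma and endothelium genes were measured, with medians of 0.155, 0.189 and 0.236. Their order rested on single arrays, with 0.0798 without BRSST-Ezh2 replicate 1, 0.105 without BRSST-Luc replicate 3 and 0.141 without Luc replicate 3.

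Y-linked genes fell into 2 levels within each BRSST group. Uty, which encodes a histone demethylase paralogue on the Y chromosome, read 8.01, 8.34, 4.88 and 5.0 in BRSST-Ezh2, 8.0, 5.49, 5.44, 7.83 and 4.85 in BRSST-Luc and 7.52 to 8.58 in Luc. Kdm5d, a Y-linked histone demethylase gene, split the arrays in the same way (7.00, 7.33, 4.08 and 4.27, then 6.75, 4.41, 4.78, 6.70 and 4.16). The labels used here give no sex for donors or recipients, and transplanted marrow can hold cells of both. BRSST-Ezh2 replicates 1 and 2 and BRSST-Luc replicates 1 and 4 were thus at the higher level, with all Luc arrays. BRSST-Luc replicates 1 and 4 also shared high Saa3, Cd14 and Cxcl2 and low Il6st, and whether the class behind the Y-linked level plays a part there was not tested. With each level given its own centre, the median SD over all genes was 0.187 in BRSST-Ezh2, 0.244 in BRSST-Luc and 0.154 in Luc.

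Interferon response genes had larger median SDs in both BRSST groups than in Luc. Many of these genes are induced through the interferon-stimulated response element (ISRE) in their promoters, and many of their products limit viral replication. The 22 measured members of a list of 32 had median SDs of 0.344 in BRSST-Ezh2, 0.426 in BRSST-Luc and 0.148 in Luc, and the BRSST-Luc median was 0.274 without replicate 2 and 0.294 without replicate 5. The SD was larger than in Luc for 20 of 22 members in BRSST-Ezh2 (61.2% of all genes) and for 21 of 22 in BRSST-Luc (75.4% of all genes), and neither test called a member. The list mean was 7.85, 8.26, 7.91 and 8.22 in BRSST-Ezh2, 8.01, 8.55, 8.10, 7.98 and 7.65 in BRSST-Luc and 8.85 to 9.05 in Luc.

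Oas1a, which makes the 2-prime to 5-prime oligoadenylates that activate RNase L, read 7.57, 8.73, 7.73 and 8.25 in BRSST-Ezh2 and 7.61, 8.53, 8.24, 6.76 and 7.20 in BRSST-Luc, against 8.56 to 9.21 in Luc. Rtp4, an interferon-induced chaperone gene, read 6.31, 7.81, 6.20 and 7.01 and then 6.36, 8.15, 6.46, 6.03 and 4.85, with SDs of 0.74 and 1.19 against 0.32 in Luc. Replicate 2 was the high array in both BRSST groups. Stat2, a signal transducer of the interferon receptors, stayed at 9.09 to 9.44 over the 9 BRSST arrays.

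The shift of the list mean held 28.7% of the summed squared deviations of the members in BRSST-Ezh2 and 41.9% in BRSST-Luc, so most of the spread was not shared. Promoters are shown to set genes with the motif of the pathway beside their unequal spread. RefSeq promoters on GRCm38.p6, 300 bases around each start site, were found for 16 of the 22 members, and 8 of the 16 (50%) held GAAA, any 2 bases and GAAA on either strand, against 3.77% of the 8675 tested genes with a promoter. The promoters of Oas1a and Isg15, a ubiquitin-like protein gene, are printed 5 prime to 3 prime on the strand of the gene, with the bases of the matches, which overlap each other, in capitals. A match describes the letters and is not a measured binding site. Isg15 was steady in BRSST-Ezh2 (6.84 to 7.00) and less so in BRSST-Luc (6.73, 7.55, 6.60, 6.50 and 6.43), so the 2 genes with the motif differed in their spread.
Oas1a (chr5:120907476-120907775, minus strand): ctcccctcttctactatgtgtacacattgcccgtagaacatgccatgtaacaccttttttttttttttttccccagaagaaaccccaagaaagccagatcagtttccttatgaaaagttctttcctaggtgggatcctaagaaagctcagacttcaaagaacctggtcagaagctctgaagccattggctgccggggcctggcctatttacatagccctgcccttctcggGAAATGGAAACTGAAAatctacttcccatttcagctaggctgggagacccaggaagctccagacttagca
Isg15 (chr4:156200769-156201068, minus strand): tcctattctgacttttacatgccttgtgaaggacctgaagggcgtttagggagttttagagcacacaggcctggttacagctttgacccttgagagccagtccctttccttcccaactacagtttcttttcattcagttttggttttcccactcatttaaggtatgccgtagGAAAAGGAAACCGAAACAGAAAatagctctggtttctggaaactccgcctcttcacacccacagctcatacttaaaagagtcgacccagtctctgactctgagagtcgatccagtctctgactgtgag

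DNA replication genes had a larger median SD in BRSST-Luc than in either other group. The 22 measured members of a list of 24 had median SDs of 0.191 in BRSST-Ezh2, 0.459 in BRSST-Luc and 0.154 in Luc. In BRSST-Luc the SD exceeded that of Luc for all 22 measured members (75.4% of all genes). It was larger in BRSST-Ezh2 than in BRSST-Luc for 1 of 22 (33% of all genes). The list mean was 9.65, 9.08, 10.07, 9.43 and 9.54 on the BRSST-Luc arrays and 9.46 to 9.72 on the Luc arrays. Replicate 2 was therefore low and replicate 3 high.

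Pole, the catalytic subunit of DNA polymerase epsilon, read 8.84, 7.31, 9.60, 8.75 and 9.32 in BRSST-Luc (SD 0.89) and 9.0 to 9.50 in Luc (SD 0.21). Mcm4, a subunit of the replicative helicase, read 9.36, 8.13, 9.78, 8.69 and 9.45 (SD 0.66, against 0.10 in BRSST-Ezh2). Gins1, a helicase cofactor, departed from this order, with replicate 2 at 9.82 and replicate 5 lowest at 8.51. Pcna, the sliding clamp, stayed at 11.47 to 11.94 in BRSST-Luc.

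The larger spread of mitosis and G2 genes rested on 1 array in BRSST-Ezh2 and partly on 1 array in BRSST-Luc. The 23 measured members of a list of 24 had medians of 0.286, 0.373 and 0.160 in BRSST-Ezh2, BRSST-Luc and Luc, and the SD exceeded that in Luc for 21 of 23 in BRSST-Ezh2 (61.2% of all genes) and 22 of 23 in BRSST-Luc (75.4% of all genes). Without BRSST-Ezh2 replicate 3 the median of that group was 0.124, below Luc. Without BRSST-Luc replicate 2 that of BRSST-Luc was 0.209, still above Luc. The list mean was lowest on BRSST-Ezh2 replicate 3 (9.90, 9.85, 9.37 and 9.99) and on BRSST-Luc replicate 2 (9.74, 9.11, 9.99, 9.74 and 9.83). Both arrays were those with the highest B lineage and T and NK cell means of their group. The shift of the list mean accounted for 76.1% of the summed squared deviations of its members in BRSST-Ezh2, 62.5% in BRSST-Luc and 54.4% in Luc.

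Kif11, a motor that separates spindle poles, read 8.92, 9.20, 8.19 and 9.31 in BRSST-Ezh2 and 8.61, 7.35, 8.95, 8.43 and 9.20 in BRSST-Luc, against 9.17 to 9.46 in Luc. Prc1, which bundles the central spindle, read 8.91, 7.82, 9.81, 8.88 and 9.45 in BRSST-Luc. Birc5, the survivin gene, was steadier, with SDs of 0.21, 0.20 and 0.19.

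Cholesterol synthesis genes had their largest spread in BRSST-Luc, although no single member was called. The 17 measured members of a list of 23 had medians of 0.156 in BRSST-Ezh2, 0.444 in BRSST-Luc and 0.141 in Luc, and the list mean was 8.41, 8.35, 8.39, 8.42 and 7.91 on the BRSST-Luc arrays. Ebp, a sterol isomerase gene, read 10.21, 10.60, 10.39, 10.01 and 9.18 (SD 0.55) in BRSST-Luc against SDs of 0.10 in BRSST-Ezh2 and 0.04 in Luc. Fdps, farnesyl diphosphate synthase, read 10.88, 11.05, 10.89, 10.52 and 9.89. Replicate 5 was the low array in both. Without replicate 5 the list median of BRSST-Luc was 0.290, and without replicate 2 it was 0.328.

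Not all members were lowest on replicate 5. Hsd17b7, a ketosteroid reductase of the pathway, was lowest on replicate 2 (7.57, 6.58, 7.72, 7.98 and 7.49). Msmo1, the sterol methyl oxidase, was highest on replicate 2 and lowest on replicate 5, like Ebp and Fdps (7.84, 8.72, 7.87, 7.99 and 7.25). Stard4, a cholesterol carrier, was high on BRSST-Ezh2 replicate 3 (7.28, 7.41, 9.73 and 7.77). SREBP2 drives the pathway through sterol response elements, and TCAC, any 2 bases and CAC was found on either strand in the promoters of 4 of 13 members (30.8%), against 4.23% of tested genes. Both promoters below hold a match, in capitals, although the genes ran in opposite directions on replicate 2.
Hsd17b7 (chr1:169969156-169969455, minus strand): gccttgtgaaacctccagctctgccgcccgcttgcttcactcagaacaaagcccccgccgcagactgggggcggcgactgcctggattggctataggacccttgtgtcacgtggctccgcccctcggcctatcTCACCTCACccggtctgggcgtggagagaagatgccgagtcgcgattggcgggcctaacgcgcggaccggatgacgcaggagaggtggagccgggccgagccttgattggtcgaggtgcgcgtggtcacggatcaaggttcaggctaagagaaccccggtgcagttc
Msmo1 (chr8:64733529-64733828, minus strand): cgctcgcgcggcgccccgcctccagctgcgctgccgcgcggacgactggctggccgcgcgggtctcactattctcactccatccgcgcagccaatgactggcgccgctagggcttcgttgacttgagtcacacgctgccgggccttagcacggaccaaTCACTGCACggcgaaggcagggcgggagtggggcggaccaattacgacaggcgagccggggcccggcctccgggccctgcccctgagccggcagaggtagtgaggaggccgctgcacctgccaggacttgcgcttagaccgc

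Heat shock genes had a smaller SD in BRSST-Ezh2 than in Luc for most members. The 14 measured members of a list of 18 had medians of 0.126, 0.311 and 0.179 in BRSST-Ezh2, BRSST-Luc and Luc. The Luc median was 0.134 without replicate 1 and 0.131 without replicate 3, close to that of BRSST-Ezh2. The SD exceeded that in Luc for 2 of 14 in BRSST-Ezh2 (61.2% of all genes) and for 12 of 14 in BRSST-Luc (75.4% of all genes), and no member was called. Hspd1, the mitochondrial chaperonin, read 8.74 to 8.96 in BRSST-Ezh2 and 8.22, 7.44, 9.22, 8.41 and 8.37 in BRSST-Luc, with replicate 2 low and replicate 3 high as for the replication genes. Chordc1, an HSP90 cochaperone gene, was low on BRSST-Luc replicates 1, 4 and 5 instead (7.33, 8.68, 8.73, 7.66 and 7.91), the arrays that were also low for Aif1. The heat shock element, searched on either strand as GAA, any 2 bases, TTC, any 2 bases and GAA, was present in 4 of 13 promoters (30.8%) and in 0.576% of those of tested genes, and the Chordc1 promoter holds 3 overlapping matches, in capitals.
Chordc1 (chr9:18292017-18292316, plus strand): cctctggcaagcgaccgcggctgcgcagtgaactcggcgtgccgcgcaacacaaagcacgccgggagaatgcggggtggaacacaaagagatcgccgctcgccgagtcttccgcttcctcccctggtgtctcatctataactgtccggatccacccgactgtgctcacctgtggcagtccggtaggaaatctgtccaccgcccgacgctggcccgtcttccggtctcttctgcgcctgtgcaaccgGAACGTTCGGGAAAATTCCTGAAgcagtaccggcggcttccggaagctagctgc

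Genes that respond within minutes to stimuli or handling varied in all groups. The 19 measured immediate early genes of a list of 20 had medians of 0.277, 0.376 and 0.284, and the Luc median was 0.167 without replicate 4. The transcription factor gene Egr1 read 10.34, 8.27, 9.74, 10.22 and 8.90 in BRSST-Luc and 8.74 to 9.50 in Luc. Atf3, a stress-induced factor, read 9.14, 7.39, 8.84, 9.09 and 7.48 in BRSST-Luc, with replicates 2 and 5 low. Of the 19 genes, 7 were in the top 10% of SD in Luc, against 5 in each BRSST group.

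Glucocorticoid-induced genes had medians of 0.272, 0.324 and 0.160 over 11 measured members of a list of 12. The SD exceeded that in Luc for 6 of 11 in BRSST-Ezh2 (61.2% of all genes) and 8 of 11 in BRSST-Luc (75.4% of all genes), not above those shares. The BRSST-Luc median was 0.231 without replicate 2 and 0.230 without replicate 5, and that of BRSST-Ezh2 was 0.196 without replicate 3. Sgk1, a hormone-induced kinase, read 9.09, 7.43, 7.53, 9.18 and 8.21 in BRSST-Luc (SD 0.83) and 8.01 to 8.37 in Luc (SD 0.16). Its high arrays, replicates 1 and 4, were those of Saa3. Dusp1, a phosphatase that shuts off MAP kinases, stayed at 13.04 to 13.37 on the 9 BRSST arrays.

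**Figure D5:**
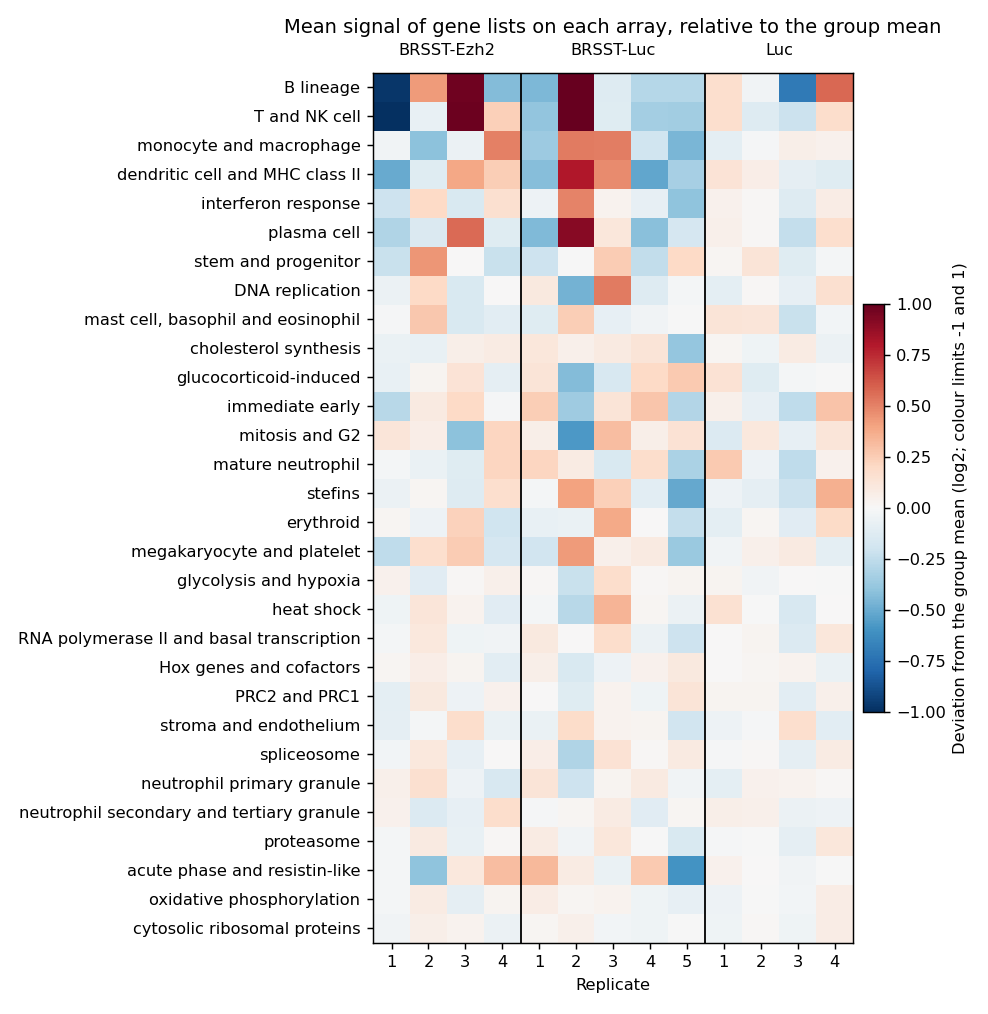
Mean log2 signal of 30 gene lists on each array minus the mean of its group (colour, with limits at -1 and 1), lists in order of their pooled BRSST spread and columns by group and replicate. B lineage and T and NK cell lists are high on BRSST-Ezh2 replicate 3 and BRSST-Luc replicate 2 and low on BRSST-Ezh2 replicate 1, mitosis genes are low on the first 2 of these arrays, and the ribosomal row is nearly white.

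Glycolysis genes varied little in BRSST-Ezh2 and moderately in BRSST-Luc. The medians of 24 measured members of a list of 28 were 0.168, 0.287 and 0.135, and the SD exceeded that in Luc for 22 of 24 in BRSST-Luc (75.4% of all genes) and 13 of 24 in BRSST-Ezh2, below the 61.2% of all genes. Slc2a3, a glucose transporter gene, read 9.95, 7.77, 9.71, 9.43 and 10.18 in BRSST-Luc (SD 0.96, against 0.23 in Luc). Pkm, the pyruvate kinase gene, was also lowest on replicate 2, at 11.32 against 11.99 to 12.27. Gapdh stayed at 12.34 to 12.58 on all 13 arrays.

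General transcription and splicing genes had their largest median SDs in BRSST-Luc, as all genes did (0.188, 0.248 and 0.154). RNA polymerase II and basal factor genes had medians of 0.135, 0.309 and 0.144 over 20 measured members, and spliceosome genes 0.148, 0.267 and 0.119 over 23. In BRSST-Luc the SD exceeded that of Luc for 16 of 20 and 21 of 23 (75.4% of all genes). In BRSST-Ezh2 it did so for 9 of 20 and 11 of 23 (61.2% of all genes). Among genes of like signal the median SD percentile in BRSST-Luc was 65.2 and 55.7. Without BRSST-Luc replicate 5 the BRSST-Luc medians were 0.199 and 0.176. The spliceosome median was 0.0869 without BRSST-Ezh2 replicate 2 and 0.0746 without Luc replicate 3. Polr2b, a core subunit of the polymerase, read 9.70, 8.34, 10.02, 9.60 and 10.03 in BRSST-Luc. Sf3b3, a component of the U2 particle, read 8.95, 7.90, 9.32, 8.91 and 9.34. Taf6, a TFIID subunit gene, was low on replicate 5 instead (9.74, 9.79, 10.12, 9.53 and 8.61). In BRSST-Luc 1 array stood apart by Dixon's ratio for 736 genes (6.94%), near the 1 in 20 that chance gives. Replicate 2 was that array for 349 genes, of which 245 were low. The same array had one of the narrowest ranges of signal (3.07), and its part in these low readings was not tested.

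The acute phase and resistin-like list had medians of 0.126, 0.142 and 0.0985 over 11 measured members of 14, and 0.0623 without BRSST-Ezh2 replicate 4. Among genes of like signal its median SD percentile was 75.3 in BRSST-Ezh2, 45.3 in BRSST-Luc and 72.1 in Luc. Il1rn, the interleukin-1 receptor antagonist gene, read 7.21, 9.03, 8.02, 6.85 and 6.43 in BRSST-Luc, 8.21 to 9.14 in BRSST-Ezh2 and 10.74 to 11.44 in Luc. Replicate 5 was the lowest BRSST-Luc array for this gene, as for Saa3. Lcn2, a neutrophil siderophore-binding protein gene, stayed at 13.18 to 13.35 on the 9 BRSST arrays.

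At the uniform end, ribosomal protein genes had median SDs of 0.0733, 0.0589 and 0.0735 in BRSST-Ezh2, BRSST-Luc and Luc over 23 measured members of a list of 30. Of the 31 lists it had the lowest median in each of the 3 groups. In BRSST-Luc the SD exceeded that of Luc for 8 of 23 members, against 75.4% of all genes. Against genes of like signal the median percentile of the list was 34.7 in BRSST-Ezh2, 6.98 in BRSST-Luc and 49.2 in Luc. Rpl6 read 12.92 to 13.01 on the BRSST-Luc arrays. Rps19, the ribosomal gene whose loss causes Diamond-Blackfan anemia, was less tight, at 11.09, 11.37, 11.01, 10.92 and 10.85.

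Oxidative phosphorylation genes had medians of 0.0882, 0.115 and 0.0947 over 27 measured members of a list of 28, and 0.0596 without Luc replicate 4. Cox4i1, a subunit of cytochrome c oxidase, stayed at 12.61 to 12.79 on the 9 BRSST arrays. Sdha, the flavoprotein of succinate dehydrogenase, was an exception, at 8.28, 7.44, 8.65, 7.52 and 8.42 in BRSST-Luc (SD 0.55). Proteasome genes had medians of 0.0982, 0.170 and 0.104 over 25 measured members, and Psmb1, a core particle subunit, read 12.35 to 12.38 in BRSST-Ezh2 and 12.46 to 12.55 in BRSST-Luc.

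The steadiest genes of the BRSST groups with a mean signal between the median and the 90th percentile were of varied function. Tomm20, a receptor of the mitochondrial import pore, read 10.52, 10.65, 10.55 and 10.54 in BRSST-Ezh2 and 10.78, 10.70, 10.66, 10.81 and 10.83 in BRSST-Luc. Puf60, a splicing factor gene, read 10.87, 10.97, 10.75 and 10.86 and then 10.97, 10.89, 10.97, 10.92 and 10.92. The other 10 genes chosen by the same rule were Fahd2a, Mrps11, Rab3gap2, Dek, Spg21, Tnip2, Il16, Mfap1a, Pgs1 and Eed. These genes were chosen for their small SD, so their values are a description.

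Eed, a core subunit of Polycomb repressive complex 2, thus stood among the steadiest genes, at 9.90 to 10.06 in BRSST-Ezh2 and 9.86 to 10.06 in BRSST-Luc. Ezh2, the methyltransferase of the complex and the target of the added guide, read 8.08, 9.0, 8.81 and 9.22 in BRSST-Ezh2, 9.86, 10.08, 10.46, 9.56 and 9.15 in BRSST-Luc and 10.42, 10.48, 9.94 and 10.55 in Luc. Its SD was 0.50 in both BRSST groups and 0.28 in Luc. BRSST-Ezh2 replicate 4 and BRSST-Luc replicate 5 overlapped at 9.22 and 9.15. Array signal need not show a guide-induced change that leaves the transcript in place.

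The 25 measured Polycomb genes of a list of 28 had medians of 0.165, 0.245 and 0.146, close to the all-gene medians of 0.188, 0.248 and 0.154. Phf19, a PRC2 accessory subunit, was the most variable in BRSST-Luc, at 8.76, 7.38, 9.15, 8.90 and 8.77. Hox genes and cofactors, which Polycomb complexes repress outside progenitors, had medians of 0.195, 0.248 and 0.165 over 12 measured members, and 0.112 without BRSST-Ezh2 replicate 4. Pbx3, a Hox cofactor, read 7.06, 5.67, 7.31, 6.91 and 8.46 in BRSST-Luc (SD 1.00) and 7.78 to 8.30 in BRSST-Ezh2 (SD 0.25), with replicate 2 low and replicate 5 high.

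Spread larger in Luc than in the BRSST groups was rarer. The SD was more than 2-fold larger in Luc than in BRSST-Ezh2 for 953 genes (8.99%), against 2386 (22.5%) the other way. The same counts for BRSST-Luc were 556 (5.24%) and 4278 (40.4%). Cdk11b, a cyclin-dependent kinase gene, read 8.96, 8.96, 7.22 and 8.76 in Luc and 7.85 to 8.80 in BRSST-Ezh2. Rnf8, a ubiquitin ligase of the DNA damage response, read 8.73, 8.73, 7.69 and 8.65 in Luc and 8.55 to 8.68 in BRSST-Ezh2. Luc replicate 3 was the low array in both. By Dixon's ratio 1 array stood apart for 671 genes in Luc (6.33%), near the 1 in 20 that chance gives, and replicate 3 was that array for 413.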

How the data were processed

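The deposited table holds log2 signal per probe set for 13 arrays. Per the submitters' processing notes, the authors used R 3.5.01 and oligo; background correction, normalization and genome build were not given in the sources used here. Of 22203 probe sets, 19572 carried 1 gene symbol and 2631 none, giving 19505 symbols. For the 55 symbols with several probe sets, the one of highest mean signal was used.

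SDs were taken per group and gene. Spread was tested with limma 3.58.1 (R 4.3.3) on absolute deviations from the group mean, corrected for group size, with Benjamini-Hochberg adjustment at 0.05 over all 10601 genes. Array distances were compared with exact permutation tests, two-sided (Python 3.11.15, numpy 2.4.6, scipy 1.17.1). A moderated variance ratio, which assumes normal values, was chosen after seeing the data. Both gene tests were checked on simulated data. With equal simulated spreads, limma gave more unadjusted p-values under 0.05 than that level allows, and it called 2 genes in BRSST-Luc against Luc. With changed genes present it called up to 20 unchanged ones, so its calls are not held to the stated rate. It recovered 0% to 25% of the changed genes. The variance ratio recovered 0% to 1% of genes given a 4-fold SD and 45% to 62% of those given an 8-fold SD. Its counts of 0 therefore cannot decide on smaller differences in spread.

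Named genes were the 12 of largest SD per BRSST group, the 10 of largest excess and deficit against Luc, the 12 steadiest, the 3 most and 2 least variable of each of 31 lists, up to 10 calls per comparison, and Ezh2; a few further list members were named after their values were seen. The genes, lists and arrays left out were chosen with earlier results of these data known. Alternatives covered filters, normalization, centre, measure, model and left-out arrays.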

Additional observations from a re-analysis of the deposited data

Results flagged for a closer look

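Single arrays were set apart by the gap to the nearest other array divided by the range of the group, read against Dixon's 95% critical value. Of 324 values looked at, 26 passed, where chance gives about 1 in 20. Distances and list means gave 5 of 96 and named genes 21 of 228, and many of these genes were chosen for their spread.

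BRSST-Luc replicate 2 was set apart as high for the mean of B lineage genes (ratio 0.796) and of T and NK cell genes (0.827), and as low for mitosis genes (0.711). It was high for the B cell genes Fcmr (0.731) and Fcrla (0.743), the plasma cell gene Mzb1 (0.894) and the NK cell receptor gene Ncr1 (0.905). BRSST-Luc replicate 5 was low for the mean of cholesterol synthesis genes (0.861), for Ceacam10 (0.741) and for Il1f9 (0.809).

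In BRSST-Ezh2, replicate 3 was high for Fcmr (0.911) and Spib (0.977), a B cell transcription factor gene, and low for Depdc7 (0.861). Replicate 2 was low for Ms4a4c (0.931) and Tmem205 (0.927), and replicate 4 was high for Utp18 (0.95).

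Luc replicate 3 was low for the mean of Polycomb genes (0.832) and for Cdk11b (0.885), Dnah8 (0.897), Golm2 (0.902), Klra13-ps (0.831), Klrd1 (0.883), Pja2 (0.894) and Rnf8 (0.922). Luc replicate 4 was low for H2-Eb1 (0.865), an MHC class II gene, and Luc replicate 2 for Nmral1 (0.993).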

How the results depend on the processing

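By limma, the count of genes with a different spread between BRSST-Luc and Luc (30) ranged from 0 to 302 when 1 array was left out. It was 12 with equal array medians, 57 with the replicate block, and 0 with deviations from the group median, squared deviations, only the 2 groups compared, or without BRSST-Luc replicates 2 and 5. Between BRSST-Ezh2 and BRSST-Luc (12) it ranged from 0 to 209 on leaving out 1 array. It was 1 with equal array medians, 29 with the replicate block, 2 with squared deviations, 4 without BRSST-Luc replicates 2 and 5, and 0 with group medians or only the 2 groups compared. Between BRSST-Ezh2 and Luc (0) it ranged from 0 to 9 on leaving out 1 array, and was 2 with squared deviations, 8 with only the 2 groups compared and 6 without BRSST-Luc replicates 2 and 5. By the variance ratio, BRSST-Luc against Luc (46) gave 0 to 950 on leaving out 1 array (950 without Luc replicate 3), 21 without a filter, 152 above the 75th percentile, 17 above the median on all 13 arrays and 0 without BRSST-Luc replicates 2 and 5. BRSST-Ezh2 against Luc (0) gave 0 to 33, and 1 under each stricter filter.

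The difference in array distance between BRSST-Luc and Luc (0.144) ranged from 0.0994 to 0.188 on leaving out 1 array and was 0.0644 without BRSST-Luc replicates 2 and 5. With the replicate block it was 0.126 (exact p = 0.125, the smallest 4 pairs allow). The array distance from the group mean, BRSST-Ezh2 against BRSST-Luc, had a difference of -0.106 to -0.0273 and turned to 0.00758 without BRSST-Luc replicates 2 and 5. For BRSST-Ezh2 against Luc it ranged from 0.0488 to 0.116. Same-numbered arrays had correlations of deviations from -0.18 to 0.19, so the numbers were not taken to pair arrays.

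The median SD ranged on leaving out 1 array from 0.151 to 0.194 in BRSST-Ezh2, 0.212 to 0.264 in BRSST-Luc and 0.113 to 0.158 in Luc. It was 0.139, 0.188 and 0.109 from the median absolute deviation and 0.274, 0.356 and 0.208 as a root mean square, and 0.171 in BRSST-Luc without replicates 2 and 5. The ratio of BRSST-Luc to Luc ranged from 1.37 to 2.19 and was 1.11 without those 2 arrays. The ratio of BRSST-Ezh2 to Luc ranged from 0.981, without BRSST-Ezh2 replicate 4, to 1.66, and that of BRSST-Ezh2 to BRSST-Luc from 0.611 to 0.888, turning to 1.10 without BRSST-Luc replicates 2 and 5. Of 586 list medians recomputed, 64 moved by more than their limit, and of 228 named gene SDs, 56. The cause of these changes was not tested. A centre for each Y-linked level was not run for tests or distances, since both arrays of a class of 2 lie equally far from their mean. With 4 or 5 arrays a group, precision is low.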
